A study of Homo sapiens with 14 samples.

Results

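The genes described here are 39 chaperones and regulators of the heat shock and unfolded protein responses, chosen by name and matched to the gene symbols of both count tables. All 39 were among the 26732 genes that the tables have in common. By compartment, 19 act in or for the endoplasmic reticulum (ER), 10 are cytosolic chaperones, co-chaperones or their regulator HSF1, 3 are mitochondrial, and 7 are subunits of the cytosolic chaperonin TRiC. RNA was sequenced from A549 and H1792, established human lung adenocarcinoma lines, 48 h after addition of 0.1 µM AMG900, an inhibitor of all aurora kinases, or of the solvent DMSO. A549, grown in DMEM, gave 4 DMSO and 4 AMG900 libraries, and H1792, grown in RPMI 1640, gave 3 of each. The labelled protocol speaks of 3 dishes per treatment, nothing else says that replicates were independent cultures, and the p-values therefore measure the spread between these libraries. No genetic change other than those the lines carry was named in the labels.

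Chaperones bind unfolded or partly folded proteins and help them to fold. Proteins that enter the secretory pathway fold in the ER with the help of BiP (HSPA5), GRP94 (HSP90B1), lectin chaperones and disulfide isomerases, and those that fail are returned to the cytosol for degradation (ERAD). Load on the ER activates the unfolded protein response, whose transcription factors ATF6 and XBP1 bind promoter elements of ER chaperone genes. In the cytosol HSP70, HSP90 and TRiC do the folding, and HSF1 induces many of their genes after heat or other proteotoxic stress. Mitochondria have their own HSP70 and HSP60.

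The level of a gene is given as CPM, its count relative to the TMM-scaled library size within a cell line, and the standard error (SE) and false discovery rate (FDR) come from the edgeR quasi-likelihood test over all genes tested. A gene is called higher or lower where the FDR is under 0.01. Total counts per library ran from 4254644 to 18962883 in A549 and from 42810734 to 79984064 in H1792, and the members took 1.29% to 1.83% of a library. A549 DMSO replicate 1 was the smallest library and stood apart from the other A549 DMSO libraries on the second principal component (50.6 against -20.7 to -18.7), so values without it are given beside results that it changes. Keratins KRT8 and KRT18 were high in A549 (summed epithelial marker list 4470 to 5650 CPM with DMSO) and lower in H1792 (659 to 819 CPM), where EPCAM was at 3.26 to 3.58 CPM and CDH1 at 0.570 to 0.739 CPM. Of the 5 epithelial markers, 4 were called lower and 1 higher in H1792 than in A549 with DMSO (log2 differences of -4.98 to 3.75). The lung markers NKX2-1, NAPSA, SFTPB and SFTPC were at or near 0 in both lines (summed 0.185 to 2 CPM), and the summed fibroblast list was 3310 to 4210 CPM in H1792 and 85.5 to 121 CPM in A549 with DMSO. With AMG900 the epithelial sum was 6110 to 6880 CPM in A549 (4 of 4 tested markers higher) and 818 to 830 CPM in H1792, and the fibroblast sum was 39.8 to 48.9 CPM in A549 and 2500 to 2560 CPM in H1792 (4 of 5 lower). The leukocyte list, in which PTPRC and CD3E were at or under 0.0945 CPM and CD68 and CD14 made up the rest, was at 63.7 to 89.5 CPM with DMSO and 159 to 180 CPM with AMG900 in A549 (2 of 2 tested higher). In H1792 this list was at 98.5 to 114 CPM with DMSO and 168 to 194 CPM with AMG900 (1 of 2 tested higher). All 6 proliferation genes fell in A549 (summed 1120 to 1320 CPM with DMSO and 144 to 162 CPM with AMG900), while in H1792 the sum was 879 to 958 and 962 to 966 CPM. The part of these differences in the results that follow was not tested.

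The promoters of the ER members carry recognisable elements, shown here because the members of this group did not move together. The ER stress response element ERSE (CCAAT and CCACG, 9 bases apart) and its variant ERSE-II (ATTGG and CCACG, 1 base apart) were searched on both strands in the 250 bases before each start in RefSeq promoters (GRCh38.p14), which were given for 37 of the 39 members. In the sequences that follow, read 5′ to 3′ along the gene, capitals mark the element on either strand.
HSPA5: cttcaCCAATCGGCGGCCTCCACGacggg
HSP90B1: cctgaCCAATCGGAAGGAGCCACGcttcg
CALR: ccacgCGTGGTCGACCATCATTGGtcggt
CRELD2: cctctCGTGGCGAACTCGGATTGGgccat
XBP1: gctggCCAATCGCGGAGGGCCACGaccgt
PDIA6: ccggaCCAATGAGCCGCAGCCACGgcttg
CANX: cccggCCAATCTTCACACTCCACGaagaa
HYOU1: tgggaCGTGGTCCAATgagta
SDF2L1: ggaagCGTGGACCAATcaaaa
HERPUD1: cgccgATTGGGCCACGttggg
The first 7 of these hold an ERSE and the last 3 an ERSE-II. They lie at chr9:125241386-125241414 (minus strand) for HSPA5, chr12:103930211-103930239 (plus) for HSP90B1, chr19:12938379-12938407 (plus) for CALR and chr22:49918549-49918577 (plus) for CRELD2. Those of the other genes are at chr22:28800598-28800626 (minus) for XBP1, chr2:10812848-10812876 (minus) for PDIA6, chr5:179698773-179698801 (plus) for CANX, chr11:119057269-119057289 (minus) for HYOU1, chr22:21642109-21642129 (plus) for SDF2L1 and chr16:56932020-56932040 (plus) for HERPUD1. CANX, PDIA6 and, for the heat shock element below, HSP90AA1, HSP90AB1 and HSPD1 have annotated starts upstream of their elements, which may thus be transcribed. An ERSE was found in 7 and an ERSE-II in 3 of the 18 ER members with a promoter, in 0 of the 19 other members with one, and in 0.0740% and 0.0513% of all 35114 promoters. Here and for the heat shock element below, members were counted by gene over all their promoters, and the background by promoter, with theirs included. As the members were chosen by name for these responses, the contrast with the background is not a test. The heat shock element (GAA, TTC and GAA, each 2 bases apart) was found in HSPA8, HSP90AA1, HSP90AB1 and HSPD1, and in 0.441% of all promoters. Those of HSPA8 at chr11:123062174-123062196 and of HSP90AA1 at chr14:102087115-102087137, both on the minus strand, read as follows.
HSPA8: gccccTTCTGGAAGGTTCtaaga
HSP90AA1: ggttcTTCCGGAAGGTTCgggag
A match in these letters is not a shown binding site, and its absence from this window says nothing of the factor.

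In A549 cells, 7 of the 39 members were upregulated and 14 downregulated by AMG900, where 17.2% of all 13174 genes tested were called higher and 17.8% lower (35% in all). Without DMSO replicate 1 the counts were 13 and 16. With scaling by total counts, which shifted the median of all genes by -0.08, the split was 4 higher and 17 lower. The shares of all genes called in these settings are not given here, and the shares above do not apply to them. In the ER group 5 of 19 were higher and 3 lower, with a median log2 fold change of 0.15, and after correction for transcript GC content 6 were higher and 0 lower. The cytosolic group had 2 higher and 4 lower of 10 (median 0.15), and 0 higher and 2 lower after the correction (median -0.12). No mitochondrial or TRiC gene was called higher (medians -0.76 and -0.53, all genes -0.01), and 2 of 3 and 5 of 7 were called lower. After the correction their medians were -0.38 and -0.26, with 1 and 3 lower. In H1792 cells, 5 of the 38 members tested were upregulated and 16 downregulated, where 16.2% of 15017 genes were called higher and 18.8% lower (35.1% in all). There the ER group had 2 higher and 8 lower (median -0.11; all genes 0.01), the cytosolic group 3 higher and 3 lower of 9, the mitochondrial group 2 lower of 3 and TRiC 3 lower of 7. The members were called lower more often than the background in each line. As they were chosen by name and with earlier results of these data known, this contrast is not a test. The GC correction changed the counts in A549, where 6 were then higher and 6 lower (background 14.5% and 17.8%). In H1792 the corrected counts were 6 higher and 14 lower (15.1% and 22.1%). The treated and control libraries did not overlap for 7 members on the higher and 16 on the lower side in A549 (21.9% and 22% of all genes), and for 9 and 21 in H1792 (30.1% and 29.6%).

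**Figure D1:**
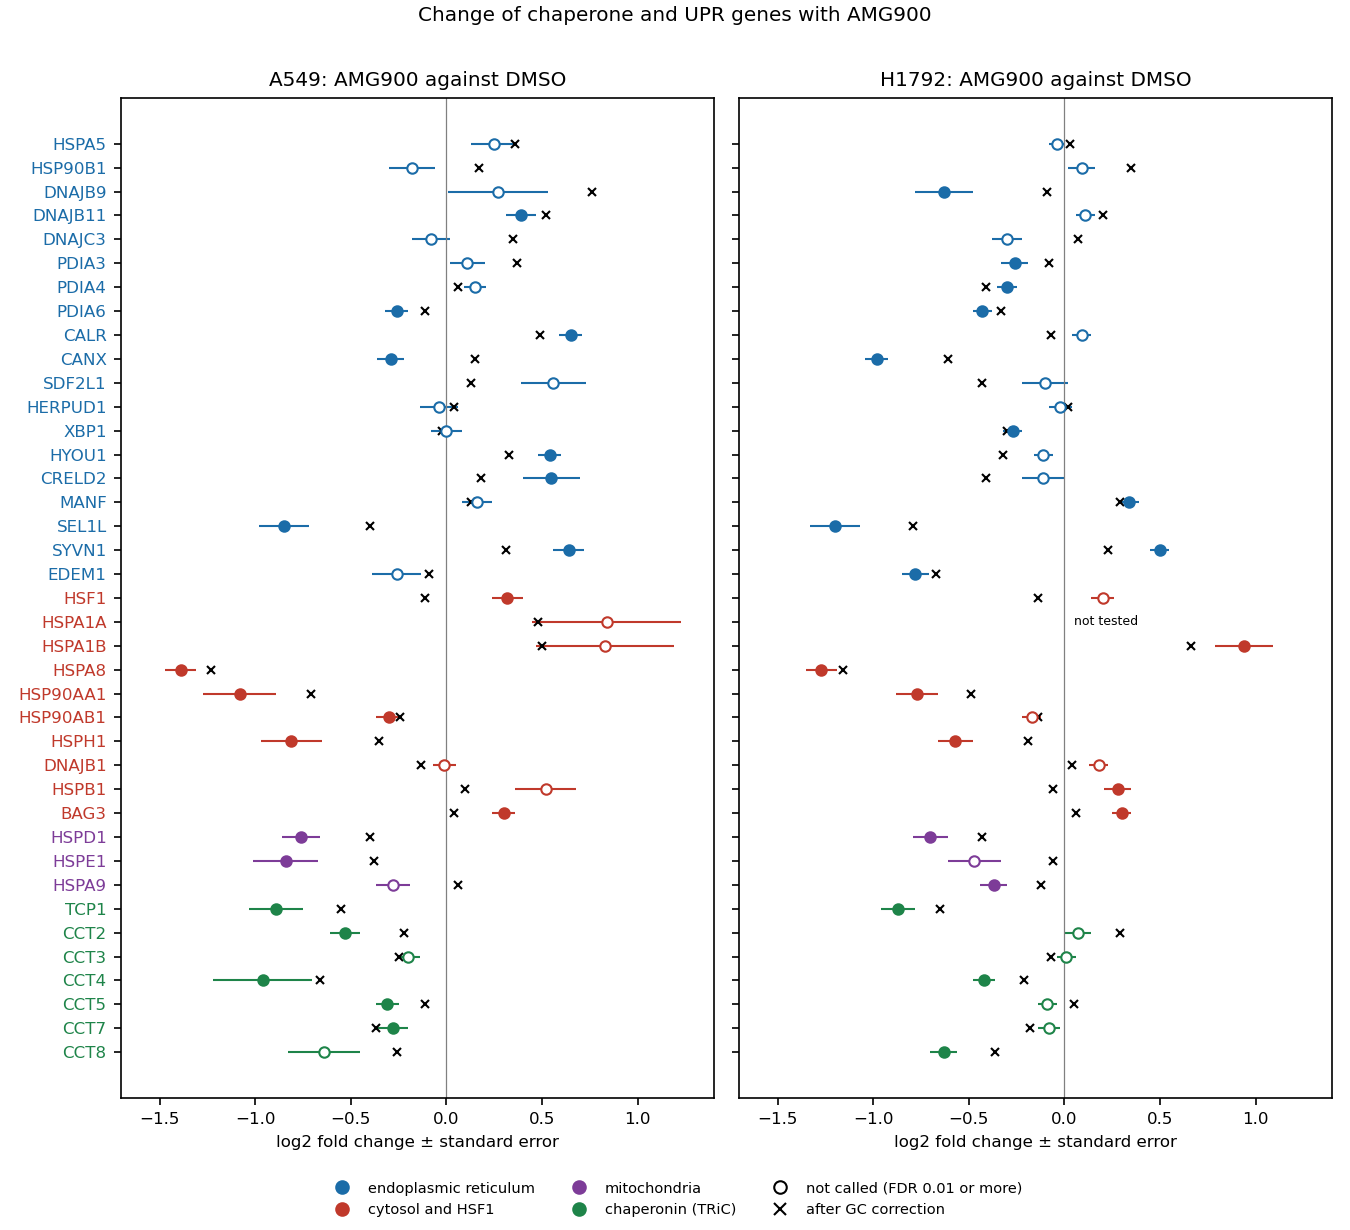
Log2 fold change (AMG900 against DMSO) of every member in A549 (left) and H1792 (right), with its SE as a bar; filled circles have an FDR under 0.01, open circles do not, and crosses are the values after GC correction. HSPA8 lies furthest to the left in both panels (-1.39 and -1.27), and many members with low values, such as CANX in A549 (-0.29 and 0.15), move to the right after the correction.

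Among the folding machines of the ER lumen, AMG900 raised calreticulin (CALR), HYOU1 and DNAJB11 in A549 and none of these was called in H1792. CALR is a calcium-binding lectin chaperone for glycoproteins. Its levels in A549 were 1240, 1350, 1370 and 1420 CPM with DMSO and 2190, 2080, 2120 and 2050 CPM with AMG900. In H1792 they were 1930, 1830 and 1800 CPM with DMSO and 2050, 1950 and 1940 CPM with AMG900. Every AMG900 library was above every DMSO library in both lines, but by 1.57-fold in A549 (log2 0.65, SE 0.06, FDR = 6.26e-07) and by 1.07-fold in H1792 (log2 0.09, SE 0.05, FDR = 0.14). HYOU1 (GRP170), an HSP70-like protein that acts as nucleotide exchange factor of BiP, was at 156, 165, 167 and 172 CPM with DMSO and at 244, 250, 228 and 240 CPM with AMG900 in A549. The groups did not overlap, and HYOU1 rose 1.46-fold (log2 0.54, SE 0.06, FDR = 9.65e-06). In H1792 its levels were 594, 580 and 578 CPM with DMSO and 551, 540 and 530 CPM with AMG900. The AMG900 libraries were all lower there, with a log2 fold change of -0.11 (SE 0.05, FDR = 0.0625) and of -0.32 after GC correction (FDR = 5.43e-05). DNAJB11, a BiP co-chaperone, rose in A549 (log2 0.39, SE 0.08, FDR = 0.00132) and had a log2 fold change of 0.11 in H1792 (FDR = 0.107; 0.20 after GC correction, FDR = 0.00709).

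BiP itself, the HSP70 of the ER and the member most used as a readout of the unfolded protein response, was called in neither line. HSPA5 (GRCh37 chr9:127997132-128003661) was at 948, 667, 602 and 601 CPM with DMSO and at 832, 864, 814 and 832 CPM with AMG900 in A549. A549 DMSO replicate 1 was above every AMG900 library and the other 3 DMSO libraries below all of them. The log2 fold change was 0.25 (SE 0.12, FDR = 0.0911) with that library and 0.42 (FDR = 3.67e-07) without it. In H1792, HSPA5 was at 1540, 1490 and 1530 CPM with DMSO and at 1460, 1460 and 1500 CPM with AMG900. These ranges overlapped, and the log2 fold change was -0.04 (SE 0.04, FDR = 0.439). GRP94 (HSP90B1), the HSP90 of the ER, had log2 fold changes of -0.18 (SE 0.12, FDR = 0.237) and 0.09 (SE 0.07, FDR = 0.323), the second of which was 0.35 and called higher after GC correction (FDR = 5.61e-05). XBP1, the transcription factor that drives ERAD and ER chaperone genes once its mRNA is spliced, was at a log2 fold change of 0.00 in A549 (SE 0.08) and fell by 0.27 in H1792 (SE 0.05, FDR = 0.00195). Gene counts do not tell its spliced from its unspliced mRNA. HERPUD1, an ERAD scaffold, had values of -0.04 and -0.02 (SE 0.10 and 0.06).

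CRELD2, MANF and SDF2L1 are small ER proteins induced by ER stress. CRELD2 was at 67.4, 37.1, 40.6 and 38.9 CPM with DMSO and at 65.0, 64.5, 62.2 and 70.5 CPM with AMG900 in A549. The AMG900 libraries were all above DMSO replicates 2 to 4, and DMSO replicate 1 lay among them. The log2 fold change was 0.55 (SE 0.15, FDR = 0.00746), 0.75 without DMSO replicate 1 (FDR = 2.79e-08), and the call was lost when any 1 of the other 7 libraries was left out. It was also lost after GC correction (0.18, FDR = 0.302) and with scaling by total counts (FDR = 0.0123). MANF in H1792 was at 232, 248 and 249 CPM with DMSO and at 316, 302 and 306 CPM with AMG900. It rose without overlap (log2 0.34, SE 0.05, FDR = 0.000354). In A549, MANF was at 127, 110, 101 and 110 CPM with DMSO and at 127, 129, 125 and 118 CPM with AMG900, a log2 fold change of 0.16 (SE 0.08, FDR = 0.107) and of 0.22 without DMSO replicate 1 (FDR = 0.0068). SDF2L1 was called in neither line (0.56, SE 0.17, FDR = 0.0127 in A549 and -0.10, SE 0.12, FDR = 0.53 in H1792), and its A549 value was 0.76 without DMSO replicate 1 (FDR = 1.65e-06). In H1792, SDF2L1 and CRELD2 were called lower after GC correction (-0.43, FDR = 0.000761 and -0.41, FDR = 0.000743).

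**Figure D2:**
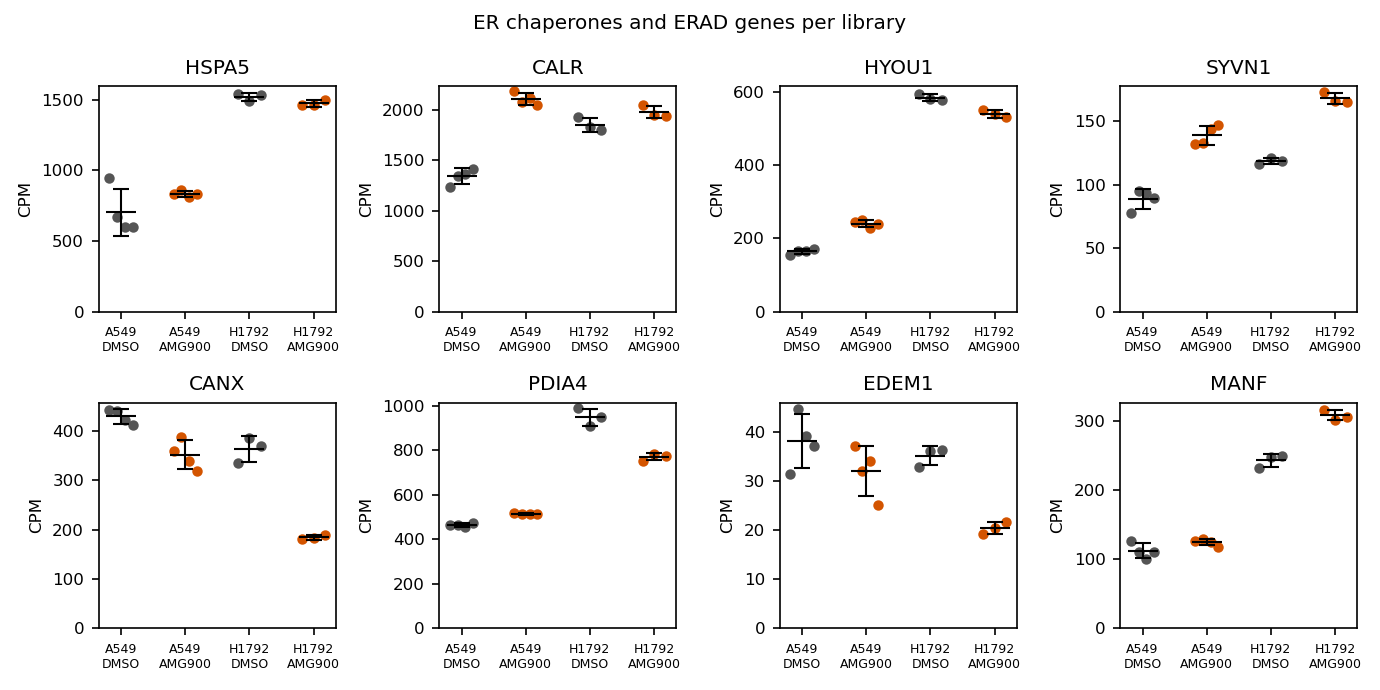
CPM of 8 ER members in every library (points; grey DMSO, orange AMG900), with mean and SD, in A549 (n = 4) and H1792 (n = 3); CPM were scaled within each line. In A549 the AMG900 points of CALR lie between 2050 and 2190 and all DMSO points at or under 1420, and in H1792 those of CANX lie between 180 and 189 under DMSO points of 334 to 385.

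Calnexin and 3 disulfide isomerases fell in H1792. CANX, the membrane-bound counterpart of CALR, was at 334, 385 and 370 CPM with DMSO and at 180, 183 and 189 CPM with AMG900 in H1792. The groups were far apart, and CANX fell 1.97-fold (log2 -0.98, SE 0.06, FDR = 2.52e-06). In A549 it was at 442, 441, 422 and 412 CPM with DMSO and at 360, 388, 338 and 319 CPM with AMG900. All AMG900 libraries were lower there (log2 -0.29, SE 0.07, FDR = 0.00355), but after GC correction the value was 0.15 (FDR = 0.0565). PDIA4, a protein disulfide isomerase, was at 987, 909 and 947 CPM with DMSO and at 753, 783 and 773 CPM with AMG900 in H1792. It fell by 0.30 on the log2 scale (SE 0.05, FDR = 0.000618). The A549 libraries were at 463, 462, 453 and 473 CPM with DMSO and at 519, 511, 512 and 512 CPM with AMG900. These did not overlap either, on the higher side, and the difference did not pass the threshold (log2 0.15, SE 0.06, FDR = 0.0373).

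PDIA6, another isomerase, fell in both lines. It was at 286, 268, 272 and 263 CPM with DMSO and at 241, 226, 225 and 216 CPM with AMG900 in A549 (log2 -0.26, SE 0.06, FDR = 0.00372), without overlap. The corrected A549 value was -0.11 (FDR = 0.152). In H1792 it went from 285, 273 and 270 CPM to 199, 207 and 208 CPM (log2 -0.43, SE 0.05, FDR = 6.99e-05). Of the exon bases of PDIA6, 25.2% overlap ATP6V1C2 on the other strand, and whether reads were counted by strand is not given in the sources used here. PDIA3, the isomerase that works with CALR and CANX, fell in H1792 (log2 -0.26, SE 0.07, FDR = 0.00712) and was at 0.11 in A549 (SE 0.09, FDR = 0.358). After GC correction PDIA3 was not called in H1792 (-0.08, FDR = 0.208) and was called higher in A549 (0.37, FDR = 0.00257). The co-chaperones DNAJB9 and DNAJC3 were at low levels; DNAJB9 fell in H1792 (log2 -0.63, SE 0.15, FDR = 0.00611; -0.09 after GC correction, FDR = 0.582), and neither was called in A549.

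The ERAD genes split within 1 enzyme complex. SYVN1 (HRD1) is the ubiquitin ligase of the complex and SEL1L its partner and stabiliser. SYVN1 was at 77.8, 95.2, 93.2 and 89.5 CPM with DMSO and at 132, 133, 144 and 147 CPM with AMG900 in A549. In H1792 it was at 116, 121 and 119 CPM with DMSO and at 173, 166 and 165 CPM with AMG900. Without overlap in either line, SYVN1 rose 1.56-fold in A549 (log2 0.64, SE 0.08, FDR = 1.5e-05) and 1.42-fold in H1792 (log2 0.50, SE 0.05, FDR = 3.05e-05). After GC correction the values were 0.31 and 0.23 (FDR = 0.00193 and 0.00707). SEL1L was at 23.5, 30.1, 27.5 and 22.7 CPM with DMSO and at 15.3, 13.1, 16.5 and 12.9 CPM with AMG900 in A549. The H1792 libraries were at 10.9, 15.0 and 13.7 CPM with DMSO and at 6.21, 5.33 and 5.65 CPM with AMG900. SEL1L fell 1.81-fold in A549 (log2 -0.85, SE 0.13, FDR = 0.000115; -0.40 after GC correction, FDR = 0.0114) and 2.29-fold in H1792 (log2 -1.20, SE 0.13, FDR = 4.26e-05; -0.79 after correction, FDR = 8.96e-05). EDEM1, a lectin that hands misfolded glycoproteins to ERAD, fell in H1792 (log2 -0.78, SE 0.07, FDR = 2.19e-05) and was at -0.26 in A549 (SE 0.13, FDR = 0.113).

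The constitutive HSP70 and the inducible-type HSP90 of the cytosol fell in both lines, by more than any other member of the cytosolic group. HSPA8 (HSC70; GRCh37 chr11:122928197-122933938), which folds newly made proteins and strips clathrin from vesicles, was at 1450, 1460, 1330 and 1290 CPM with DMSO and at 588, 523, 548 and 460 CPM with AMG900 in A549. In H1792 it was at 677, 811 and 764 CPM with DMSO and at 288, 303 and 342 CPM with AMG900. Each line had a wide gap between the treatments, with falls of 2.61-fold (log2 -1.39, SE 0.08, FDR = 3.43e-09) and 2.41-fold (log2 -1.27, SE 0.08, FDR = 2.56e-06). After GC correction these were -1.23 and -1.16 (FDR = 3.42e-09 and 4.91e-07). HSP90AA1 (HSP90α; GRCh37 chr14:102547079-102606036) was at 1940, 1190, 945 and 897 CPM with DMSO and at 688, 564, 628 and 476 CPM with AMG900 in A549. DMSO replicate 1 was the highest there; the log2 fold change was -1.08 (SE 0.19, FDR = 0.000389) with it and -0.78 without it (FDR = 4.95e-08). In H1792, HSP90AA1 was at 349, 470 and 447 CPM with DMSO and at 231, 239 and 275 CPM with AMG900, without overlap (log2 -0.77, SE 0.11, FDR = 0.000197).

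Other genes of the HSP70 and HSP90 machines moved less. HSP90AB1 (HSP90β), the constitutive form, fell in A549 (log2 -0.30, SE 0.07, FDR = 0.00246; -0.24 after GC correction, FDR = 0.0217) and was at -0.17 in H1792 (SE 0.05, FDR = 0.0182). HSPH1 (HSP110), a nucleotide exchange factor for HSP70, was at 115, 68.5, 62.0 and 65.4 CPM with DMSO and at 43.2, 46.7, 45.7 and 38.1 CPM with AMG900 in A549. In H1792 it was at 28.3, 33.5 and 32.3 CPM with DMSO and at 19.8, 20.7 and 22.6 CPM with AMG900. It fell in both (log2 -0.81, SE 0.16, FDR = 0.000839 and log2 -0.57, SE 0.09, FDR = 0.000324), though not past the threshold after GC correction (-0.35, FDR = 0.06 and -0.19, FDR = 0.0245). BAG3, a co-chaperone that links HSP70 to autophagy, was at 163, 172, 174 and 182 CPM with DMSO and at 221, 206, 213 and 215 CPM with AMG900 in A549. Its H1792 levels were 189, 195 and 188 CPM with DMSO and 243, 237 and 224 CPM with AMG900. The groups were apart in both lines with a log2 rise of 0.30 in each (SE 0.06, FDR = 0.00137 and SE 0.05, FDR = 0.000837), and the corrected values were 0.04 and 0.06 (FDR = 0.61 and 0.376).

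The stress-inducible HSP70 genes HSPA1A and HSPA1B encode nearly the same protein from neighbouring genes, and reads may be split between them by the counting. HSPA1A had 33.3% to 49.2% of their summed counts in A549 and 0.522% to 3.19% in H1792, where it was too low to be tested. HSPA1B was at 5.55, 6.77 and 8.98 CPM with DMSO and at 14.7, 13.3 and 12.7 CPM with AMG900 in H1792. It rose 1.93-fold without overlap (log2 0.94, SE 0.15, FDR = 0.000562), as did the sum of both genes (log2 0.93, FDR = 0.000657). In A549, HSPA1B was at 4.70, 1.73, 2.32 and 1.66 CPM with DMSO and at 4.35, 2.32, 3.72 and 6.27 CPM with AMG900, and HSPA1A at 3.76, 1.37, 1.64 and 0.831 CPM and at 2.65, 2.25, 2.75 and 4.07 CPM. DMSO replicate 1 lay among the AMG900 libraries for both genes, DMSO replicate 3 was level with AMG900 replicate 2 for HSPA1B (2.32 CPM each), and the summed gene had a log2 fold change of 0.82 (FDR = 0.0576). Without that library HSPA1B rose by 1.13 (FDR = 0.00408) and HSPA1A by 1.22 (FDR = 0.00477). HSF1, the factor that induces these genes, was called higher in A549 (log2 0.32, SE 0.08, FDR = 0.00409), at -0.11 after GC correction (FDR = 0.104), and was at 0.20 in H1792 (SE 0.06, FDR = 0.0168). HSPB1 (HSP27), a small heat shock protein, was called higher in H1792 (log2 0.28, SE 0.07, FDR = 0.00854), at -0.06 after the correction (FDR = 0.165). In A549 its log2 fold change was 0.52 (SE 0.16, FDR = 0.0128), 0.77 without DMSO replicate 1 (FDR = 6.97e-10) and 0.10 after the correction (FDR = 0.456). DNAJB1, an HSP40 co-chaperone of HSP70, had values of -0.01 and 0.18 (FDR = 0.951 and 0.0137).

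Mitochondrial HSP60 fell in both lines. HSPD1 (GRCh37 chr2:198351308-198381461), which forms the HSP60 folding chamber, was at 578, 515, 454 and 446 CPM with DMSO and at 320, 287, 319 and 248 CPM with AMG900 in A549. In H1792 it was at 341, 407 and 370 CPM with DMSO and at 200, 229 and 260 CPM with AMG900. Without overlap in either line the falls were 1.70-fold (log2 -0.76, SE 0.10, FDR = 1.84e-05) and 1.62-fold (log2 -0.70, SE 0.09, FDR = 0.000173), and -0.40 and -0.43 on the log2 scale after GC correction (FDR = 0.000552 and 0.000506). Its lid HSPE1, encoded head to head with it, had log2 fold changes of -0.84 in A549 (SE 0.17, FDR = 0.00116) and -0.47 in H1792 (SE 0.14, FDR = 0.018). After GC correction HSPE1 was called in neither line (-0.38, FDR = 0.0503 and -0.06, FDR = 0.666). Their annotated exons overlap over 135 bases on opposite strands, which is 7.41% of those of HSPE1. HSPE1 also shares 10.5% of its exon bases with HSPE1-MOB4 on the same strand. In all, 13 members share at least 50 exon bases with another counted gene. Among them are TCP1 (9.3% with ACAT2, opposite strand) and SYVN1 (6.48% with MRPL49, opposite strand, and 2.37% with FAU, same strand). What this did to the counts was not tested. Mortalin (HSPA9), the mitochondrial HSP70, was at -0.28 in A549 (SE 0.09, FDR = 0.0209) and fell in H1792 (log2 -0.37, SE 0.07, FDR = 0.00164; -0.12 after GC correction, FDR = 0.045).

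TRiC is a ring of paralogous subunits that folds actin, tubulin and other cytosolic proteins. Another subunit gene, CCT6A, is not a member and was counted among the further cytosolic chaperones. In A549 all 7 member subunits had AMG900 libraries below every DMSO library, where 22% of all genes did. Of the 7, 5 were called lower, where 17.8% of all genes were. After GC correction 3 were lower (median -0.26), where again 17.8% of all genes were. With DESeq2, CCT4 and CCT7 were not called in A549 (FDR = 0.0237 and 0.0104), and CCT3 was called lower (FDR = 0.00595). In H1792 only TCP1, CCT4 and CCT8 were called lower, and CCT2, CCT3, CCT5 and CCT7 had log2 fold changes of 0.07, 0.01, -0.09 and -0.08. TCP1 (CCT1; GRCh37 chr6:160199530-160210735) was at 221, 142, 133 and 129 CPM with DMSO and at 88.8, 80.0, 83.1 and 82.9 CPM with AMG900 in A549. The H1792 libraries were at 202, 177 and 190 CPM with DMSO and at 90.3, 102 and 119 CPM with AMG900. TCP1 fell 1.85-fold (log2 -0.89, SE 0.14, FDR = 0.000111) and 1.83-fold (log2 -0.87, SE 0.09, FDR = 4.26e-05). The interaction was -0.07 (SE 0.19), and without A549 DMSO replicate 1 the A549 value was -0.69 (FDR = 3.71e-09) and the interaction -0.25 (FDR = 0.0932). CCT4 was at 430, 207, 155 and 147 CPM with DMSO and at 116, 98.7, 135 and 124 CPM with AMG900 in A549. The first DMSO library was far above the rest, and the log2 fold change was -0.96 (SE 0.26, FDR = 0.00671) with it and -0.51 without it (FDR = 7.32e-05). In H1792, CCT4 went from 335, 301 and 346 CPM to 251, 241 and 243 CPM (log2 -0.42, SE 0.06, FDR = 0.000254). After GC correction CCT4 did not pass the threshold in either line (-0.66, FDR = 0.0556 and -0.21, FDR = 0.0231). CCT3 and CCT8 in A549 were called lower without DMSO replicate 1 (-0.18, FDR = 0.00514 and -0.33, FDR = 0.0012).

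**Figure D3:**
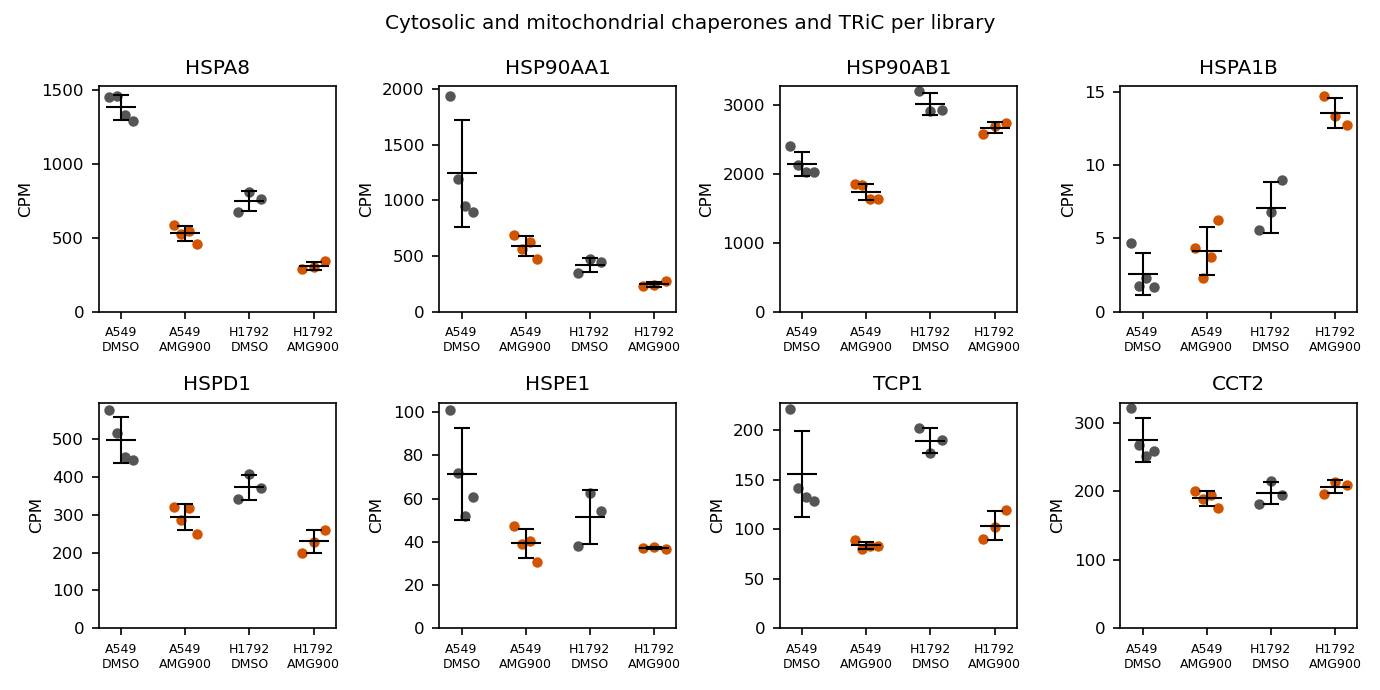
CPM of 8 cytosolic, mitochondrial and TRiC members in every library (points; grey DMSO, orange AMG900), with mean and SD, in A549 (n = 4) and H1792 (n = 3); CPM were scaled within each line. HSPA8 falls from at least 1290 to at most 588 in A549 and from at least 677 to at most 342 in H1792, and A549 DMSO replicate 1 is the highest DMSO point of HSP90AA1 (1940) and TCP1 (221).

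Of the members tested in both lines, 9 were lower in both (PDIA6, CANX, SEL1L, HSPA8, HSP90AA1, HSPH1, HSPD1, TCP1 and CCT4), where 9.31% of 12625 genes were. SYVN1 and BAG3 were higher in both, where 7.29% of the genes were, and 0 members were called in opposite directions (0.499% and 0.673% of the genes). After GC correction the A549 call was lost for PDIA6, CANX, SEL1L, HSPH1 and CCT4, and both calls for BAG3. HSPA8, HSP90AA1, HSPD1, TCP1 and SYVN1 kept theirs in both lines. The share of all genes called in both lines after the correction is not given here. A difference of effect between the lines was the line-by-treatment interaction in a fit of all 14 libraries. Relative to A549, 1 member had a higher AMG900 effect in H1792 and 4 a lower one, where 5.37% and 9.17% of 14769 genes did. With GC correction 1 was higher and 5 lower, with EDEM1 added (-0.55, FDR = 0.00455), where 9.3% and 7.66% of genes were called. The median difference was -0.42 for the ER group and -0.10 for all genes. These 5 calls were kept under all alternatives run. HYOU1 (-0.73, SE 0.08, FDR = 2.17e-06) and CALR (-0.63, SE 0.08, FDR = 1.22e-05) rose in A549 and were not called in H1792, PDIA4 (-0.53, SE 0.07, FDR = 3.14e-05) fell in H1792 and was not called in A549, and CANX (-0.77, SE 0.10, FDR = 6.92e-06) fell more in H1792. CCT2 differed the other way (0.52, SE 0.11, FDR = 0.00199). Its A549 levels were 322, 267, 251 and 258 CPM with DMSO and 201, 188, 195 and 175 CPM with AMG900, and its H1792 levels were 182, 215 and 195 CPM with DMSO and 196, 214 and 209 CPM with AMG900. CCT2 fell in A549 without overlap (log2 -0.53, SE 0.08, FDR = 0.000123), and the ranges overlapped in H1792 (log2 0.07, SE 0.07, FDR = 0.431). After GC correction CCT2 was not called in A549 (-0.22, FDR = 0.0257) and was called higher in H1792 (0.29, FDR = 0.000506). Of the cytosolic and mitochondrial members, 0 had an effect that differed past the threshold with all libraries, and HSPB1 did without A549 DMSO replicate 1 (-0.56, FDR = 0.00122). For HSPA8 the difference was 0.04 (SE 0.11) and for HSPD1 -0.01 (SE 0.14), and a difference that misses the threshold does not show equal effects. Without A549 DMSO replicate 1, 13 members had a lower effect in H1792, HSPA5 among them (-0.54, FDR = 4.21e-06). Without A549 AMG900 replicate 4 there were 7. The shares of all genes called without these libraries are not given here.

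**Figure D4:**
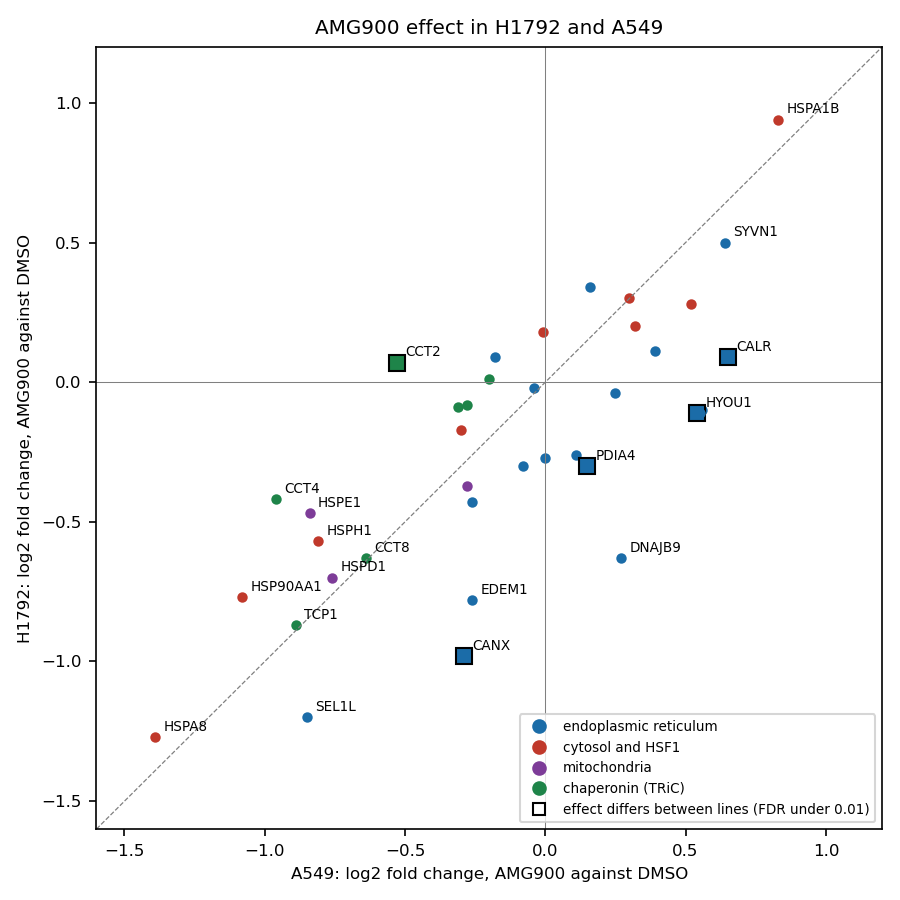
Log2 fold change of each member tested in both lines, A549 on the x axis and H1792 on the y axis, coloured by compartment; the dashed line marks equal values and squares mark members whose effect differed between lines (FDR under 0.01). CALR, HYOU1, PDIA4 and CANX lie below the dashed line and CCT2 above it, and HSPA8 lies near it at the lower left.

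The lines were also compared with DMSO alone. There, 17 members were higher and 10 lower in H1792 than in A549 on a common scale, where 34.2% and 31.9% of all genes were (66.1% in all). With GC correction the counts were 20 and 7 (33.6% and 33.6%). The lines did not overlap for 19 members that were higher in H1792 and 11 that were lower (36.3% and 32% of all genes). Scaling by total counts shifted the median of all genes in this comparison by -0.11. In the ER group 11 of 19 were higher and 2 lower, with a median log2 difference of 0.64 (all genes 0.04). Of other ER folding and ERAD genes 16 of 24 were higher and 4 lower (median 0.47), and of other mitochondrial chaperones 7 of 10 were higher and 1 lower (median 1.02). HYOU1 was at 147, 156, 161 and 167 CPM in A549 and at 610, 593 and 592 CPM in H1792, a 3.79-fold difference (log2 1.92, SE 0.06, FDR = 4.36e-16). HSPA5 was at 895, 631, 581 and 583 CPM in A549 and at 1580, 1520 and 1570 CPM in H1792, 2.32-fold higher (log2 1.21, SE 0.10, FDR = 3.01e-09). In neither gene did the lines overlap. SDF2L1 (1.81), XBP1 (1.28), MANF (1.23), CRELD2 (1.23), PDIA4 (1.13) and PDIA3 (1.10) were also higher, whereas SEL1L (-0.89) and DNAJC3 (-0.30) were lower. The cytosolic group was split, with HSP90AB1 (0.59), HSF1 (0.62), HSPA1B (1.75) and BAG3 (0.24) higher in H1792 and HSP90AA1 (-1.45), HSPH1 (-1.17), DNAJB1 (-1.01) and HSPA8 (-0.78) lower. HSP90AA1 was at 1830, 1130, 911 and 871 CPM in A549 and at 358, 481 and 458 CPM in H1792. For HSPA1A the log2 difference was -3.05, but with HSPA1A and HSPA1B summed it was 1.00 (FDR = 0.00523). Without A549 DMSO replicate 1, HSP90B1 (0.32), HSPB1 (0.54), TCP1 (0.59) and CCT4 (1.05) were also called higher, and HSPD1 was not called (-0.24, FDR = 0.0231). The line cannot be told apart here from the medium, the sequencing depth or separate library making. Per kilobase of transcript, with DMSO, the highest members in A549 were HSPB1 (1200), HSP90AB1 (840), CALR (707) and HSPA8 (611 CPM per kb), and in H1792 HSPB1 (1370), HSP90AB1 (1180), CALR (976) and CCT7 (508 CPM per kb).

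The ER members with and without an element are given side by side, with no test of their difference. Over all genes 17.2% were called higher and 17.8% lower in A549, and 16.2% and 18.8% in H1792. The AMG900 effect was lower in H1792 for 9.17% of genes, and 34.2% were higher in H1792 with DMSO. Of the 10 with an ERSE or ERSE-II, 3 were higher and 2 lower in A549 and 0 higher and 3 lower in H1792. The 8 ER members with neither element had 2 higher and 1 lower, and 2 higher and 4 lower. The AMG900 effect was lower in H1792 for 3 of the 10 and 1 of the 8 (medians -0.50 and -0.39). In the DMSO libraries 6 of the 10 and 4 of the 8 were higher in H1792, with median log2 differences of 0.89 and 0.57. Of the 4 genes with a heat shock element, HSPA8, HSP90AA1 and HSPD1 fell in both lines, and HSP90AB1 fell in A549. Of the members with a promoter and no such element, PDIA6, CANX, SEL1L, HSPH1, TCP1 and CCT4 fell in both lines and the rest did not. Of all genes 9.31% were lower in both lines, and the difference was not tested.

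The fold change of the members moved with the GC content of their transcripts. Across members, which are not independent replicates, Spearman's rho between them was 0.745 in A549 (n = 39) and 0.709 in H1792 (n = 38), and across all genes 0.499 and 0.481. Members called lower in A549 had transcripts of 39.3% to 51.6% GC (median 42.5%), and those called higher 45.9% to 63.9% (median 56.9%). In H1792 the medians were 42.2% and 58.5%. Partners within a function could differ in GC content, as SEL1L (39.3%) and SYVN1 (58.5%) or CANX (39.9%) and CALR (53.8%). In A549 their log2 fold changes after GC correction were -0.40 and 0.31, and 0.15 and 0.49. The difference between the lines had a rho of -0.27 across the members and -0.08 across all genes. What lies behind the trend was not tested. Calls kept in every alternative run, GC correction included, were CALR, HYOU1, DNAJB11 and SYVN1 higher and HSPA8, HSP90AA1, HSPD1 and TCP1 lower in A549 (8 of 21). In H1792 they were MANF and HSPA1B higher and CANX, PDIA4, PDIA6, SEL1L, EDEM1, HSPA8, HSP90AA1, HSPD1, TCP1 and CCT8 lower (12 of 21).

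**Figure D5:**
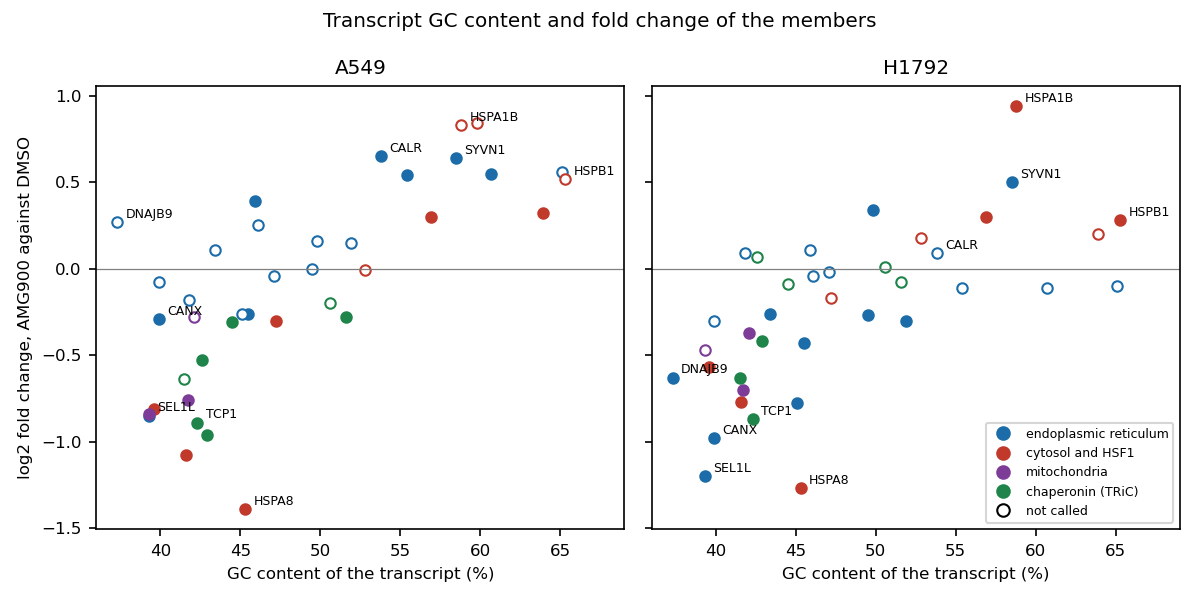
Log2 fold change (AMG900 against DMSO) of each member against the GC content of its transcript, in A549 (left) and H1792 (right), coloured by compartment; filled circles have an FDR under 0.01. Most members under 45% GC lie below 0 in both panels, and HSPA8 (45.3%) is the lowest point in each.

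The other genes of these pathways were taken from lists of their regulators and partners. Their counts stand beside 17.2% of all genes called higher and 17.8% lower in A549, and 16.2% and 18.8% in H1792. Among 12 further sensors and effectors of the unfolded protein response, 3 were higher and 2 lower in A549 and 4 higher and 3 lower in H1792. DDIT3 (CHOP), the death-linked transcription factor of the PERK branch, rose in A549 (31.4 ± 1.32 to 58.0 ± 7.04 CPM, SD, n = 4; log2 0.88, SE 0.10, FDR = 7.19e-06) and in H1792 (77.7 ± 4.85 to 135 ± 2.66 CPM, SD, n = 3; log2 0.79, SE 0.06, FDR = 6.29e-06). Likewise PPP1R15A (GADD34), which reverses the translation block of that branch, rose by 0.73 and 0.80 (FDR = 1.37e-06 and 6.11e-06). The PERK kinase gene itself, EIF2AK3, fell by 1.04 and 0.86 (FDR = 0.00379 and 0.000202), and MBTPS2, the protease that activates ATF6, fell by 1.10 and 1.26 (FDR = 0.000529 and 4.99e-05). In A549 neither of these falls passed the threshold after GC correction (FDR = 0.0127 and 0.0193). Of 23 tested ER folding and ERAD genes, 10 were higher and 3 lower in A549 and 6 higher and 7 lower in H1792. The isomerase TXNDC5 fell in both, by 1.34 and 1.38 (FDR = 7.52e-06 and 1.89e-06), as did EDEM3, by 1.03 and 1.79 (FDR = 0.00277 and 3.17e-06), the first not past the threshold after GC correction (FDR = 0.0772).

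In the cytosol, 5 of 31 further chaperones were higher and 7 lower in A549, and 8 were higher and 9 lower in H1792. Of all genes 17.2% were called higher and 17.8% lower in A549, and 16.2% and 18.8% in H1792. CRYAB (αB-crystallin), a small heat shock protein, rose from 4.07 ± 1.24 to 25.1 ± 2.66 CPM in A549 (SD, n = 4; log2 2.55, SE 0.18, FDR = 4.13e-08) and from 0.12 ± 0.00507 to 1.77 ± 0.06 CPM in H1792 (SD, n = 3; log2 3.86, SE 0.28, FDR = 5.12e-06). FKBP5, an HSP90 co-chaperone of steroid receptors, fell by 1.90 in A549 and by 0.74 in H1792 (FDR = 2.07e-05 and 8.79e-05), and this effect differed between the lines (1.08, FDR = 0.00835). Of 6 prefoldin genes, which hand proteins to TRiC, 1 was higher and 1 lower in A549 and 2 were higher and 2 lower in H1792, with VBP1 lower in both (-0.87 and -1.15, FDR = 0.00098 and 1.96e-05; -0.36 with FDR = 0.11 in A549 after GC correction). Among 10 further mitochondrial chaperones and proteases, 4 were higher and 1 lower in A549 and 2 higher and 2 lower in H1792. ATF5, a factor of the mitochondrial unfolded protein response, rose by 0.40 and 0.36 (FDR = 0.000671 and 0.000633), with 0.04 and 0.06 after GC correction, and LONP1, the matrix protease, was called higher in A549 (0.42, FDR = 0.0031; 0.01 after GC correction) and not in H1792 (-0.05, FDR = 0.601), with an effect that differed between the lines (-0.55, FDR = 0.00755; -0.33, FDR = 0.0179 after correction).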

How the data were processed

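The authors deposited raw counts, the number of reads on each gene symbol, in 1 table per cell line, and the counts were used as deposited. The submitters' processing notes name STAR, HTSeq and hg19 (GRCh37), and counting by strand is not given in the sources used here. From the table of H1792, 28 entries named as dates (0.101% to 0.117% of counts) were left out. The software was R 4.3.3, edgeR 4.0.16 and limma 3.58.1, with DESeq2 1.42.0 for an alternative. Genes were kept by filterByExpr, scaled by TMM and tested within each line by quasi-likelihood F tests in edgeR, p-values being adjusted over all genes after Benjamini and Hochberg (FDR threshold 0.01). The interaction and the DMSO comparison used 1 fit over all 14 libraries. Total counts of 4254644 to 79984064 per library and a biological coefficient of variation of 12.8% in A549 and 9.6% in H1792 set the precision. GC content came from GENCODE transcripts (GRCh37), and the GC correction, chosen with these data known, fitted a natural spline (5 degrees of freedom) per library. Of 26786 gene names, 22365 matched by current and 1250 by older symbol. Alternatives were DESeq2, its size factors, total counts, no filter, a replicate block, a minimum of 10 counts in each library, HSPA1A with HSPA1B summed, an FDR threshold of 0.05 and each library left out. The steps were tested on simulated data. Members named in full are the defining chaperones of each compartment, those called in both lines or in the interaction, and the 3 largest changes in each direction per line; of other lists at most 3 genes per line. The members and lists were chosen with earlier results of these data known.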

Additional observations from a re-analysis of the deposited data

Results flagged for a closer look

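Of 78 groups of 4 A549 libraries looked at (39 members in each of the DMSO and AMG900 groups), 9 had a library far from the other 3, where chance flags about 1 in 20 groups. In 7 of the 9 the library was DMSO replicate 1, the smallest. It was the highest for CCT7 (1110 CPM, others 889 to 895), CCT8 (164, others 75.6 to 85.6), CRELD2 (67.4, others 37.1 to 40.6), HSPB1 (1380, others 750 to 807), HSPH1 (115, others 62.0 to 68.5) and TCP1 (221, others 129 to 142), and the lowest for HERPUD1 (56.9, others 71.0 to 73.5). With AMG900, CCT7 was lowest in replicate 3 (703 CPM, others 801 to 809) and PDIA4 highest in replicate 1 (519 CPM, others 511 to 512).

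The AMG900 effect differed between the lines, by the interaction test of edgeR, for HYOU1 (-0.73, FDR = 2.17e-06), CANX (-0.77, FDR = 6.92e-06), CALR (-0.63, FDR = 1.22e-05) and PDIA4 (-0.53, FDR = 3.14e-05), each lower in H1792, and for CCT2 (0.52, FDR = 0.00199), higher in H1792. Their sequencing depth, culture medium and number of libraries differ between the lines along with the cells.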

How the results depend on the processing

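Counts of members called moved by over 1.5 times in few settings. They are counts of members alone, and apart from the GC correction above the shares of all genes in these settings are not given. In A549, 4 were higher with total counts scaling, and 6 were lower with GC correction, with GC correction and total counts scaling, and with the replicate block and GC correction. For the interaction, DESeq2 gave 3 higher, no filter 8 lower and an FDR threshold of 0.05 12 lower. In the DMSO comparison at least 10 counts in every library left 6 lower. Leaving out 1 library gave 5 to 13 higher and 9 to 16 lower in A549, 4 to 7 and 12 to 19 in H1792, 1 and 4 to 13 for the interaction, and 16 to 21 and 6 to 10 with DMSO; the extremes came without A549 DMSO replicate 1 (13 higher; 13 lower in the interaction), A549 AMG900 replicate 3 or 4 (9 lower) and H1792 DMSO replicate 1 (6 lower with DMSO). The direction was reversed by GC correction, alone or with total counts or the block, for CANX (0.15 in each) and HSF1 (-0.11 in each) in A549, DNAJC3 in A549 (0.35, in 2 of the 3) and HSPB1 in H1792 (-0.06, -0.07 and -0.06), and by summing with HSPA1B for HSPA1A in the DMSO comparison (1.00). Why these moved was not tested, beyond the summing. Same-numbered DMSO and AMG900 libraries did not deviate together (correlations -0.06 to 0.04). So few libraries per group do not show whether they were paired. With the replicate block 6 and 12 members were higher and lower in A549, 5 and 17 in H1792, and 1 and 5 in the interaction. Depth limits HSPA1A, at 6 to 22 counts in H1792, and intervals for low genes.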
